A study of Homo sapiens with 9 samples.

Results

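The genes described here are 43 genes of the lysosome, its proton pump and the TFEB pathway, taken from a table of 20323 genes by their symbol. Where a symbol stood on several rows, the row with the largest summed count was used, which applied to CTSD, HEXA, CLN3 and FLCN. By role they are 3 transcription factors of the MiT/TFE family, 5 genes of the Rag GTPase and folliculin system, 16 hydrolases and their cofactors, 9 membrane and cholesterol-handling proteins and 10 proton pump genes. All 43 passed the filter on low counts. The study concerned Wnt signaling, ATF3 and mitophagy in kidney injury, and used HKC-8, an established human proximal tubular epithelial cell line. RNA was sequenced from 9 libraries in 3 groups of 3. Wnt1_KP6 cells carried a Wnt1 expression plasmid, Wnt1 being a secreted signaling ligand, and were given KP6, a peptide derived from the kidney protein Klotho. Wnt1 cells received the Wnt1 plasmid alone, and control cells received the empty vector pcDNA3. The sources used here give no dose, time or transfection rate. Every group thus shares the same line and a transfection, and all libraries carry the same batch label. Nothing in the labels says that replicates were separate cultures, and the p-values then cover only the spread among these libraries, which may be technical.

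Lysosomes break down proteins, lipids and sugars delivered by endocytosis and autophagy, with acid hydrolases that work at the low pH set by the V-ATPase, a proton pump with a membrane sector (V0) and a cytosolic sector that splits ATP (V1). TFEB and its relatives TFE3 and MITF bind short elements in the promoters of many lysosomal genes, known as CLEAR elements. When nutrients are ample, the Rag GTPases recruit these factors to the lysosome surface, where mTORC1 phosphorylates them and holds them in the cytosol, and folliculin with its partners FNIP1 and FNIP2 activates RagC and RagD for that step. Proximal tubular cells take up filtered proteins and depend on lysosomes to degrade them.

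The core letters of the CLEAR element, TCACGTG on either strand, were searched in RefSeq promoter windows of build GRCh38.p14 that run from 250 bases before to 50 bases after a gene's start. A window was available for 31 members, and 11 of them held the motif, or 35.5%, against 4.49% of 27305 genes with a window. These 11 stretches are shown because the motif is the core of the element that the factors described here bind. The search matched letters only, and binding was not measured. Values with and without the motif are given further on. The stretches are given 5′ to 3′ on the strand of the gene, with 20 bases on either side where the part before the start allows it, and capitals mark the motif on either strand. A run of 8 capitals is the palindrome TCACGTGA, where matches on both strands overlap by 6 bases, which 19.4% of the members with a window and 1.18% of all genes held. The palindrome of CLN3 reaches past the start of the gene and lies outside its printed stretch. The stretches lie at chr19:7522562-7522623 (MCOLN1, plus strand), chr16:1475030-1475096 (CLCN7, minus strand), chr16:28492078-28492124 (CLN3, minus strand) and chr13:113297026-113297237 (LAMP1, plus strand). Those of the hydrolases lie at chr6:31862922-31862968 (NEU1, minus strand), chr11:1763948-1763994 (CTSD, minus strand), chr20:45891272-45891334 (CTSA, plus strand) and chr17:80101484-80101576 (GAA, plus strand). The other 3 lie at chr16:67481190-67481237 (ATP6V0D1), chr1:38859858-38859904 (RRAGC) and chr5:131797085-131797212 (FNIP1), all on the minus strand. The starts are those of RefSeq, while gene positions given further on are from GENCODE. By the GENCODE positions the stretches of CLCN7, CLN3, CTSD, CTSA and ATP6V0D1 lie inside the gene, and that of GAA lies partly inside.
MCOLN1: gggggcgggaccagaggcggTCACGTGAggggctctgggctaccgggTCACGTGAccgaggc
CLCN7: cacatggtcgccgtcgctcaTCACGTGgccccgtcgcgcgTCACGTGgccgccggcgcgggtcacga
CLN3: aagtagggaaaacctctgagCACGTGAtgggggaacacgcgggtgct
LAMP1: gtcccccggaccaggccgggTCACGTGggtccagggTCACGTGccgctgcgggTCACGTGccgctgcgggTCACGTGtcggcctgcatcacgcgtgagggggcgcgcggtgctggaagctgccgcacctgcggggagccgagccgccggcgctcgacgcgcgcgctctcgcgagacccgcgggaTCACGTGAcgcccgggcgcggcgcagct
NEU1: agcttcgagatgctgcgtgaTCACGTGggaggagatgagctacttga
CTSD: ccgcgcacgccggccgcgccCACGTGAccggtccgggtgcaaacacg
CTSA: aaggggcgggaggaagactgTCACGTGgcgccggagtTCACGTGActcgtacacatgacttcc
GAA: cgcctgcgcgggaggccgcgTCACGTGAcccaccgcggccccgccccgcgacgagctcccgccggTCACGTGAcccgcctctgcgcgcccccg
ATP6V0D1: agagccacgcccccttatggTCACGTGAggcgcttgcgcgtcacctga
RRAGC: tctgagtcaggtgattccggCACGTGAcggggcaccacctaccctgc
FNIP1: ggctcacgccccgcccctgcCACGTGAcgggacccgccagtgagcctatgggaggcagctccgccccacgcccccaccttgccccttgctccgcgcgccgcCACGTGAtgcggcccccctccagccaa

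Libraries held 21199078 to 27507623 expected counts, and 13153 genes were tested. The plasmid's gene gave no check on the labels: WNT1 had 1, 2 and 0 counts in the Wnt1_KP6 libraries, 0 in all 3 Wnt1 libraries and 0 in all 3 control libraries, where 0 counts over 3 libraries allows up to 0.0410 CPM in Wnt1 and 0.0367 CPM in control (counting error only). Replicate 1 of every group stood apart from replicates 2 and 3, at -37.4 to -38.8 on a first principal component that held 38.1% of the variance, with the other 6 libraries at 9.21 to 25.1. On the second component (28.3%) the replicate 1 libraries lay together, at -1.57 in control, 2.09 in Wnt1 and 2.30 in Wnt1_KP6. Replicates 2 and 3 separated by group there. They lay at 37.7 and 38.8 in control, -7.61 and -8.11 in Wnt1 and -31.7 and -31.8 in Wnt1_KP6. The share of mitochondrial transcripts in replicate 1 was 5.18% to 5.72%, against 7.01% to 7.97% in the other libraries. Of the proximal tubule markers reported here, GGT1 and PAX8 were above 1 CPM in every library, while the defining markers LRP2, SLC34A1, AQP1 and HNF4A stayed at or under 0.217 CPM. PAX8 averaged 746 CPM in Wnt1_KP6, 714 in Wnt1 and 526 in control, and GGT1 averaged 155, 151 and 157 CPM in the same order. Of 6 epithelial markers 5 were above 1 CPM in every library, with CDH1 at or under 0.141 CPM, and they summed to 2078 to 2126 CPM in Wnt1_KP6, 1554 to 2094 in Wnt1 and 1194 to 2033 in control. CLDN1, one of the 6, averaged 1214 CPM in Wnt1_KP6, 955 in Wnt1 and 673 in control. Among macrophage markers, whose cells are rich in lysosomes, PTPRC and CD163 were at 0 in all 9 libraries and only CD68, itself a lysosomal protein, exceeded 1 CPM in every library, with sums of 26.6 to 50.2 CPM in Wnt1_KP6, 27.9 to 51.8 in Wnt1 and 38.1 to 51.2 in control. The 8 intercalated cell markers, some of them pump isoforms of acid-secreting kidney cells, summed to 2.91 to 4.82 CPM in Wnt1_KP6, 2.77 to 3.18 in Wnt1 and 3.04 to 3.58 in control, with FOXI1 and ATP6V1G3 at 0 throughout. The 6 fibroblast markers summed to 17.6 to 22.9 CPM in Wnt1_KP6, 15.5 to 20.1 in Wnt1 and 21.2 to 35.7 in control. Of these only COL1A1 exceeded 1 CPM in every library. COL1A2, DCN and PDGFRA peaked in control replicate 1, at 6.928, 1.336 and 0.844 CPM. DCN and PDGFRA were at 0 in control replicates 2 and 3, and COL1A2 averaged 0.0596 CPM in Wnt1_KP6 and 0.222 in Wnt1. LUM showed no such pattern, with averages of 0.573 CPM in Wnt1_KP6, 0.7805 in Wnt1 and 0.7998 in control. The part of these marker levels in the results that follow was not tested.

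Most of the 43 genes stood above control in both groups given the Wnt1 plasmid, and lay close to the Wnt1 level in Wnt1_KP6, but no single member passed the test over 9 libraries. For each comparison with control 32 of 43 members had a log2 fold change above 0, beside 6450 of 13153 genes for Wnt1_KP6 and 6500 for Wnt1. Within replicate 1 alone 27 of 43 members were above 0 in each, beside 6887 and 6829 of all genes. Levels are in CPM, the count of a gene scaled to its library's size, with TMM factors applied. The median log2 fold change of the 43 members was 0.22 for Wnt1_KP6 vs control, 0.22 for Wnt1 vs control and -0.01 for Wnt1_KP6 vs Wnt1, and over all genes tested it was -0.01, -0.00 and 0.00. The members' medians in the comparisons with control became 0.37 and 0.39 without control replicate 1, 0.12 and 0.10 without control replicate 2, and 0.12 and 0.11 without control replicate 3. That of Wnt1 vs control became 0.14 without Wnt1 replicate 1. The first 2 comparisons share the control libraries. Fewer cells of a type and less RNA per cell cannot be told apart in such bulk libraries. With 9 libraries and no block, edgeR's quasi-likelihood test called 0 of 43 members in each comparison at a Benjamini-Hochberg adjusted p of 0.05, beside 0.228% of all genes for Wnt1_KP6 vs control, 0.122% for Wnt1 vs control and 0% for Wnt1_KP6 vs Wnt1. At an unadjusted p under 0.05 there were 14, 15 and 0 members, and 2076, 1475 and 363 of the 13153 genes. DESeq2 called 9, 7 and 0 members, every one of them higher, beside 5.12%, 2.3% and 0.152% of all genes (3.57% and 1.54% called higher in the comparisons with control), and limma on log2(FPKM + 1) called 0 in each. Libraries of Wnt1_KP6 lay entirely above those of control for 14 members and entirely below for 1 (ATP6AP2), where 8.74% and 7.8% of all genes did so. For Wnt1 vs control these numbers were 13 and 1 (ATP6V1D), beside 8.67% and 7.87% of all genes.

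Replicate numbers were taken from these same data to pair the libraries, and the labels do not say what the numbers mark. With the replicate number as a block edgeR called 3 members for Wnt1_KP6 vs control and 2 for Wnt1 vs control, all higher. Over all genes it called 1.13% and 0.722% (0.928% and 0.631% called higher). The members called were the membrane proteins CLCN7 and MCOLN1 in both and NPC1 for Wnt1_KP6 vs control. For Wnt1_KP6 vs Wnt1 the block gave 0 members, beside 0% of all genes. In replicates 2 and 3 alone 25 members were called higher and 5 lower for Wnt1_KP6 vs control, or 58.1% and 11.6% of the 43, beside 21.1% and 19.5% of all genes. For Wnt1 vs control 24 were called higher and 4 lower, or 55.8% and 9.30%, beside 16.3% and 15.3% of all genes. In that setting the spread is that between replicates 2 and 3 only, so its adjusted p-values do not cover the distance to replicate 1. The median log2 difference of the members was 0.06 for Wnt1_KP6 vs control and 0.04 for Wnt1 vs control within replicate 1, against 0.36 and 0.38 in replicates 2 and 3. The difference between these 2 parts of the data was not tested.

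**Figure D1:**
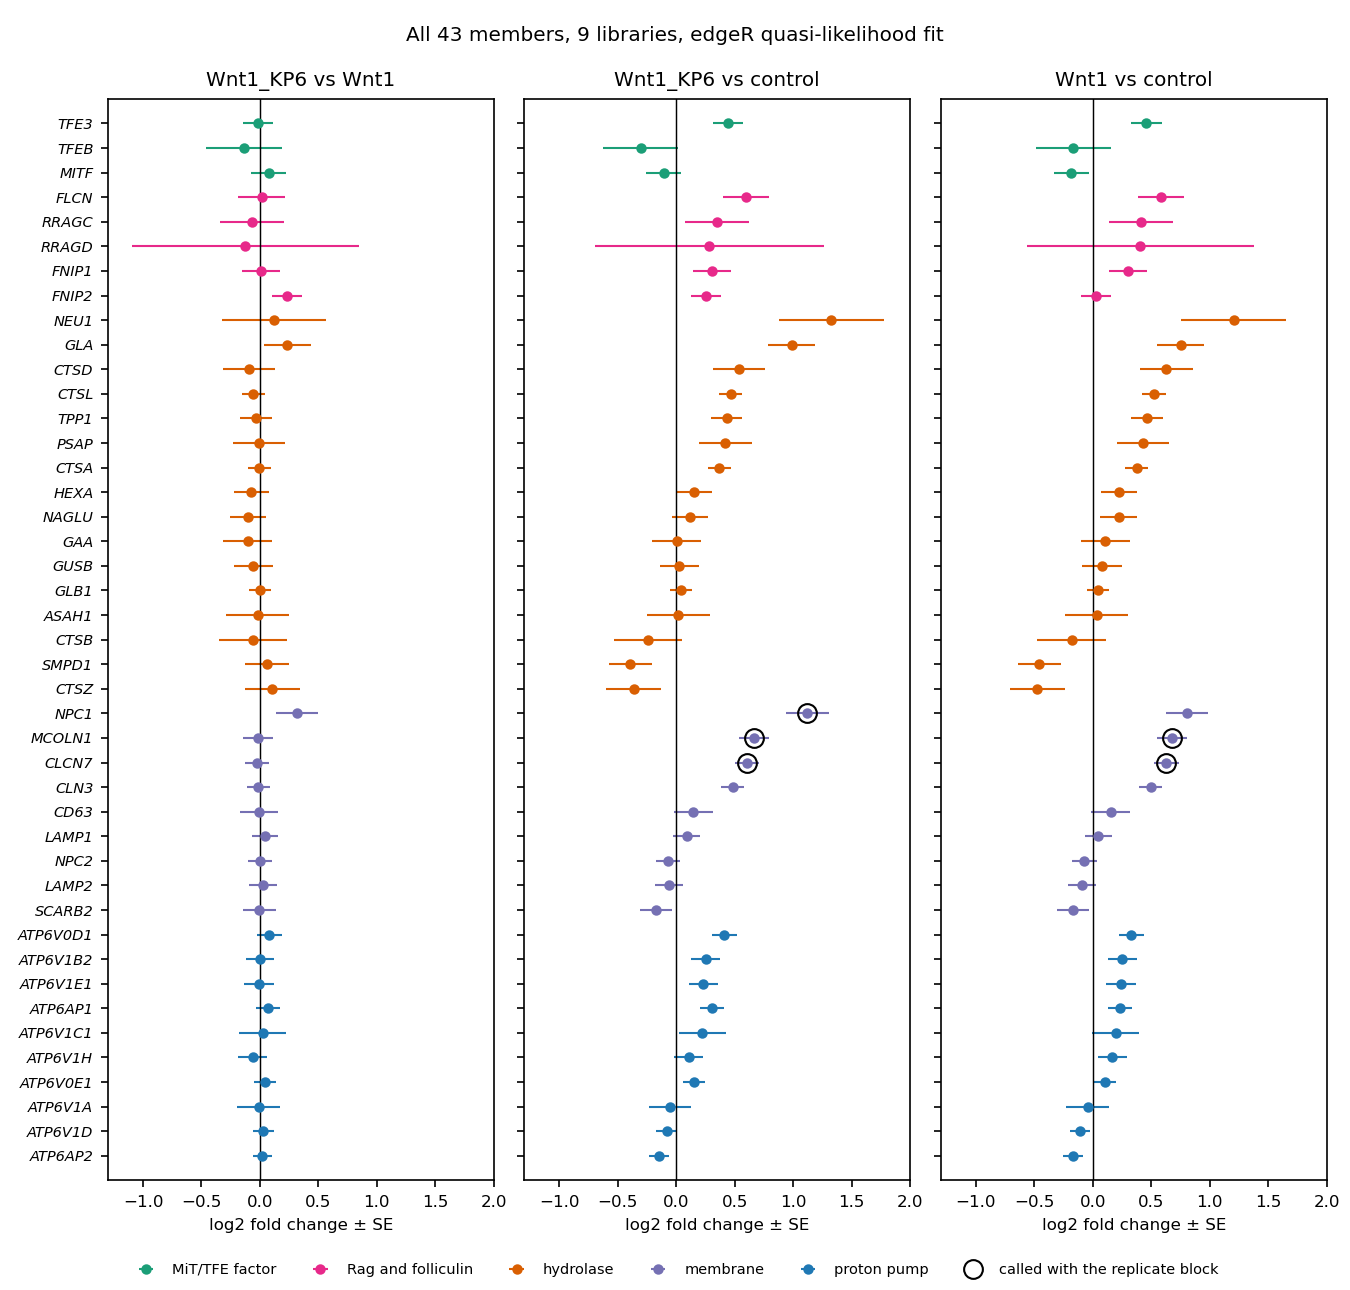
Log2 fold change (x axis, log2 units) of each of the 43 members (rows, grouped by role) in the 3 comparisons, with points for the edgeR estimate over 9 libraries, bars for its SE and black rings for members called with the replicate block. Most points of the Wnt1_KP6 vs control and Wnt1 vs control panels lie right of 0, with NEU1, NPC1 and GLA farthest, and those of the Wnt1_KP6 vs Wnt1 panel lie within -0.14 and 0.31.

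Among the MiT/TFE factors, TFE3 was the most abundant per length, and the one whose libraries in both Wnt1 plasmid groups lay above all control libraries. Mean FPKM over 9 libraries was 28.1 for TFE3, 7.88 for MITF and 2.33 for TFEB, where the median gene tested had 10.4. TFE3 (ENSG00000068323, chrX:49028726-49043486), a factor that shares its targets with TFEB, had 85.8, 112 and 106 CPM in replicates 1, 2 and 3 of Wnt1_KP6, 91.6, 106 and 109 CPM in Wnt1 and 66.9, 73.2 and 83.3 CPM in control. The lowest library of either plasmid group stood above the highest control. Its log2 fold change was 0.44 ± 0.13 (SE) for Wnt1_KP6 vs control (edgeR adjusted p = 0.158) and 0.46 ± 0.13 for Wnt1 vs control (adjusted p = 0.243), and not past the threshold with the block either (0.0587 and 0.0649). In replicate 1 alone the differences were 0.36 and 0.45, and in replicates 2 and 3 they were 0.47 and 0.46 (adjusted p = 0.00031 and 0.000564).

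TFEB (ENSG00000112561, chr6:41683978-41736259), the factor the pathway is named for, was low. It had 7.57, 3.26 and 4.02 CPM in Wnt1_KP6, 5.53, 5.03 and 5.80 CPM in Wnt1 and 5.17, 4.95 and 8.28 CPM in control, so the 3 groups overlapped. Its log2 fold changes were -0.31 ± 0.32 for Wnt1_KP6 vs control (edgeR adjusted p = 0.717), -0.17 ± 0.32 for Wnt1 vs control (0.907) and -0.14 ± 0.32 for Wnt1_KP6 vs Wnt1 (1). In replicates 2 and 3 alone it was called lower for Wnt1_KP6 vs control (-0.86 ± 0.23, adjusted p = 0.00911), whereas replicate 1 differed by 0.54 the other way. MITF (ENSG00000187098, chr3:69739435-69968337), known for its part in pigment cells, had 19.2, 25.7 and 26.4 CPM in Wnt1_KP6, 19.8, 23.5 and 24.4 CPM in Wnt1 and 28.7, 24.2 and 23.9 CPM in control. The Wnt1_KP6 and control libraries overlapped, and no fit called it. The difference in replicate 1 was -0.58 for Wnt1_KP6 vs control and -0.53 for Wnt1 vs control, against 0.11 and -0.00 in replicates 2 and 3.

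The Rag and folliculin genes had the largest role median for Wnt1 vs control, 0.41, and 0.31 for Wnt1_KP6 vs control. The median of 0.41 is the value of RRAGD, whose SE was 0.97. In replicate 1 the role median was 0.02 for Wnt1 vs control and 0.05 for Wnt1_KP6 vs control. None of the 5 was called over 9 libraries or with the block. RRAGC (ENSG00000116954, chr1:38838198-38859823), which encodes RagC, had 63.3, 61.0 and 58.3 CPM in Wnt1_KP6, 63.4, 67.0 and 60.8 CPM in Wnt1 and 75.2, 35.96 and 32.4 CPM in control. Control replicate 1 was the highest of all 9 libraries and control replicates 2 and 3 the lowest. Another annotated gene on the same strand covers 22.9% of the exon bases of RRAGC, so its level is uncertain. Across all libraries the log2 fold change was 0.35 ± 0.28 for Wnt1_KP6 vs control (edgeR adjusted p = 0.61) and 0.41 ± 0.28 for Wnt1 vs control (0.63). RRAGC was called higher in both in replicates 2 and 3 alone (0.80 ± 0.09, adjusted p = 6.78e-06, and 0.90 ± 0.09, adjusted p = 3.29e-06), while replicate 1 differed by -0.25 in each.

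FLCN (ENSG00000154803, chr17:17212212-17237188), which encodes folliculin, had 48.8, 47.1 and 52.7 CPM in Wnt1_KP6, 46.4, 53.1 and 47.6 CPM in Wnt1 and 45.5, 25.7 and 27.1 CPM in control. All libraries of both plasmid groups lay above control, with control replicate 1 just under them. Its log2 fold change was 0.60 ± 0.20 for Wnt1_KP6 vs control (edgeR adjusted p = 0.196) and 0.58 ± 0.20 for Wnt1 vs control (0.32), and in replicates 2 and 3 alone it was called at 0.92 and 0.93 (adjusted p = 3.29e-06 and 4.31e-06). Another annotated gene on the same strand covers 11.9% of the exon bases of FLCN. FNIP1 (ENSG00000217128, chr5:131641714-131797063), a partner of folliculin, had 69.7, 73.6 and 70.9 CPM in Wnt1_KP6, 76.2, 70.5 and 66.3 CPM in Wnt1 and 74.9, 52.1 and 46.2 CPM in control. Here too control replicate 1 sat among the plasmid libraries and control replicates 2 and 3 below them. FNIP2 (ENSG00000052795, chr4:158769138-158908049), the related partner, had 18.9, 20.3 and 21.5 CPM in Wnt1_KP6, 17.1, 19.9 and 14.8 CPM in Wnt1 and 18.3, 16.6 and 15.9 CPM in control. Wnt1_KP6 libraries lay above control by a narrow margin, with a log2 fold change of 0.25 ± 0.13 (edgeR adjusted p = 0.379).

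RRAGD (ENSG00000025039, chr6:89364636-89412270), which encodes RagD, was the least abundant member at 0.513 FPKM, and differed by replicate number rather than by group. It had 5.34, 0.868 and 1.47 CPM in Wnt1_KP6, 5.78, 1.14 and 1.42 CPM in Wnt1 and 4.75, 0.916 and 0.655 CPM in control. Replicate 1 was the highest library in every group, by 2.16, 2.12 and 2.50 on the log2 scale above the mean of replicates 2 and 3. The log2 fold change between groups was 0.28 ± 0.98 for Wnt1_KP6 vs control and 0.41 ± 0.97 for Wnt1 vs control, or 0.38 ± 0.27 and 0.51 ± 0.27 with the replicate block, and was not called in either fit.

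**Figure D2:**
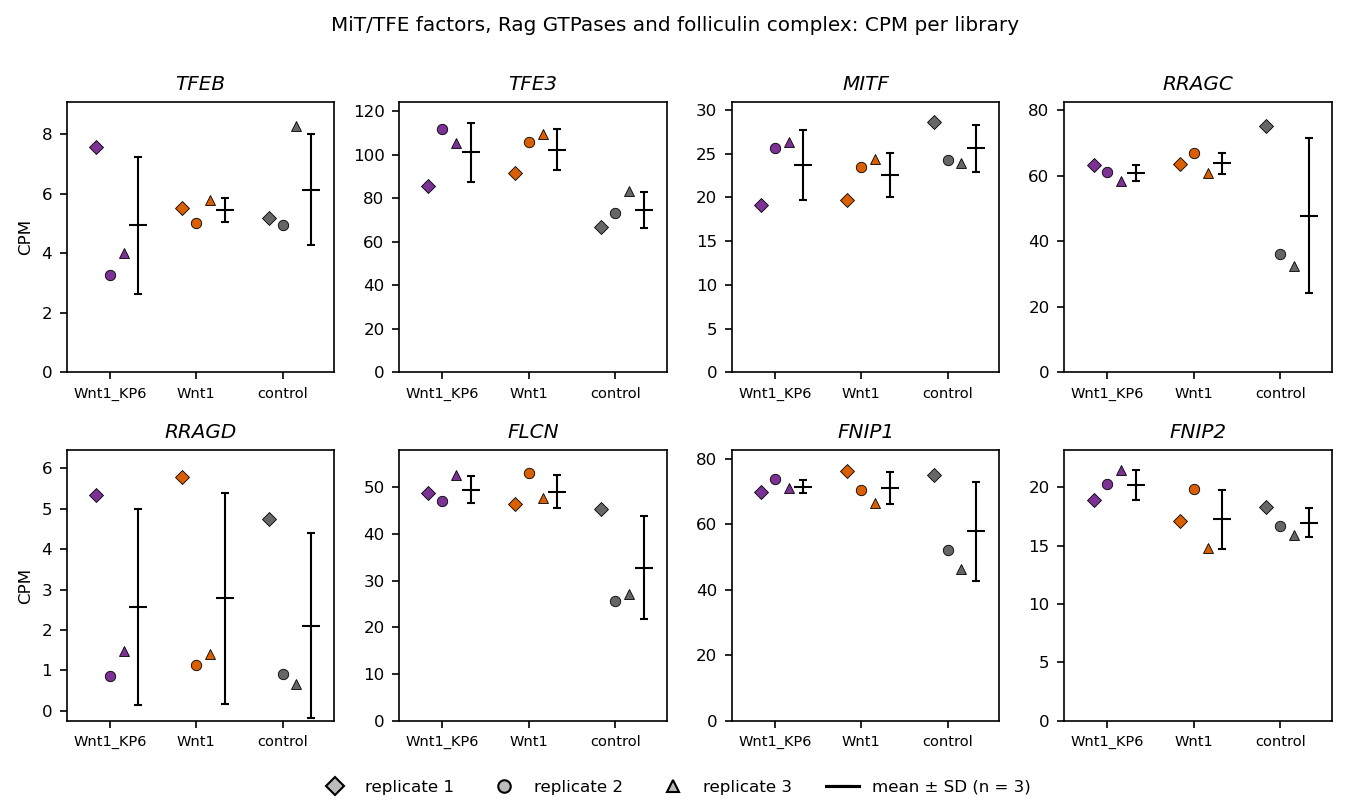
CPM per library (y axis, linear) of the 3 MiT/TFE factors, the 2 Rag genes, FLCN, FNIP1 and FNIP2 in Wnt1_KP6, Wnt1 and control, with a marker shape for each replicate number and a bar for mean ± SD (n = 3). TFE3 lies above control in every plasmid library, control replicate 1 of RRAGC, FLCN and FNIP1 lies apart from control replicates 2 and 3, and RRAGD is high in replicate 1 of each group.

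The membrane proteins held the 3 members called with the replicate block. NPC1 (ENSG00000141458, chr18:23506184-23586898), which exports cholesterol from the lysosome, had 251, 322 and 311 CPM in Wnt1_KP6, 274, 223 and 214 CPM in Wnt1 and 173, 116 and 118 CPM in control. Every plasmid library lay above every control library, and in replicates 2 and 3 the Wnt1_KP6 libraries lay above those of Wnt1, with the opposite order in replicate 1. It differed by a log2 fold change of 1.12 ± 0.18 for Wnt1_KP6 vs control (edgeR adjusted p = 0.0523, or 0.0366 under the replicate block) and 0.81 ± 0.18 for Wnt1 vs control (0.152, and 0.0945 with the block). NPC2 (ENSG00000119655, chr14:74476192-74494177), the luminal protein that hands cholesterol to NPC1, had 108, 92.6 and 97.5 CPM in Wnt1_KP6, 107, 93.8 and 97.0 CPM in Wnt1 and 116, 101 and 96.5 CPM in control. It was the more abundant of the pair per length (163 against 49.8 FPKM) and its groups overlapped, with a log2 fold change of -0.07 ± 0.10 in both comparisons with control (adjusted p = 0.806 for Wnt1_KP6 and 0.866 for Wnt1).

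CLCN7 (ENSG00000103249, chr16:1444934-1475580), the lysosomal chloride and proton exchanger, had 178, 171 and 167 CPM in Wnt1_KP6, 176, 173 and 178 CPM in Wnt1 and 124, 97.0 and 119.6 CPM in control. Both plasmid groups lay above every control library, and the log2 difference in replicate 1 was 0.53 for Wnt1_KP6 vs control and 0.51 for Wnt1 vs control, against 0.64 and 0.70 in replicates 2 and 3. The log2 fold change was 0.60 ± 0.10 for Wnt1_KP6 vs control (edgeR adjusted p = 0.0584, or 0.0344 under the replicate block) and 0.63 ± 0.10 for Wnt1 vs control (0.0742, and 0.0361 with the block). Part of its exons, 16.1% of bases, lie opposite other annotated genes, and without strand such reads cannot be told apart. MCOLN1 (ENSG00000090674, chr19:7522626-7534009), which encodes the calcium channel mucolipin 1, had 13.0, 13.9 and 14.9 CPM in Wnt1_KP6, 13.3, 13.0 and 16.02 CPM in Wnt1 and 8.16, 8.76 and 9.47 CPM in control. Again every plasmid library lay above every control library. Its log2 fold change was 0.66 ± 0.13 for Wnt1_KP6 vs control (edgeR adjusted p = 0.0691, and 0.0366 with the block) and 0.68 ± 0.13 for Wnt1 vs control (0.113, and 0.0396 with the block), with 0.67 and 0.70 in replicate 1 and 0.66 and 0.67 in replicates 2 and 3.

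CLN3 (ENSG00000188603, chr16:28474111-28495575), a membrane protein lost in juvenile Batten disease, had 47.7, 50.5 and 53.0 CPM in Wnt1_KP6, 48.7, 50.7 and 53.2 CPM in Wnt1 and 40.2, 32.5 and 35.5 CPM in control. All plasmid libraries lay above control. The log2 fold change of 0.48 ± 0.10 for Wnt1_KP6 vs control (edgeR adjusted p = 0.0773) and 0.50 ± 0.10 for Wnt1 vs control (0.125) did not pass with the block either (0.0646 and 0.0817). A share of 25.2% of its exon bases lies under other annotated genes on the same strand, so its level is uncertain. CD63 (ENSG00000135404, chr12:55725323-55729707), a tetraspanin of late endosomes and lysosomes, was among the most abundant members at 327 FPKM. It had 386, 311 and 309.9 CPM in Wnt1_KP6, 392, 314 and 306 CPM in Wnt1 and 374, 265 and 273 CPM in control. Replicate 1 was the highest library in all 3 groups, and the groups overlapped. In replicates 2 and 3 alone CD63 was called higher at 0.21 in both comparisons with control (adjusted p = 0.0100 and 0.0127). The structural proteins LAMP1 and LAMP2 had log2 fold changes of 0.09 and -0.06 for Wnt1_KP6 vs control and 0.05 and -0.09 for Wnt1 vs control, and were not called in replicates 2 and 3 alone. SCARB2, the receptor that carries beta-glucocerebrosidase to lysosomes, was called lower there (-0.22 and -0.26, adjusted p = 0.0227 and 0.0122).

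Of the 16 hydrolases, 9 were called higher and 3 lower for Wnt1_KP6 vs control in replicates 2 and 3 alone, beside 21.1% and 19.5% of all genes, and 10 higher and 3 lower for Wnt1 vs control, beside 16.3% and 15.3%. The lower calls were near the share over all genes. Over 9 libraries their median log2 fold change was 0.13 for Wnt1_KP6 vs control and 0.22 for Wnt1 vs control, and 13 of 16 were above 0 in each. CTSL (ENSG00000135047, chr9:87725519-87731393), a cysteine protease, had 63.0, 64.3 and 63.0 CPM in Wnt1_KP6, 75.7, 61.8 and 60.4 CPM in Wnt1 and 45.9, 46.9 and 45.0 CPM in control. The 3 control libraries lay close together and below all plasmid libraries. Its log2 fold change was 0.47 ± 0.10 for Wnt1_KP6 vs control (edgeR adjusted p = 0.0822) and 0.52 ± 0.10 for Wnt1 vs control (0.113). GLA (ENSG00000102393, chrX:101397803-101408012), alpha-galactosidase A, the enzyme deficient in Fabry disease, had 47.6, 80.3 and 81.5 CPM in Wnt1_KP6, 50.4, 66.0 and 61.7 CPM in Wnt1 and 39.2, 33.4 and 33.04 CPM in control. Every plasmid library again lay above control, by less in replicate 1. Its fold change on the log2 scale was 0.99 ± 0.20 for Wnt1_KP6 vs control (edgeR adjusted p = 0.0766) and 0.75 ± 0.20 for Wnt1 vs control (0.224), with 0.28 and 0.36 in replicate 1 and 1.28 and 0.94 in replicates 2 and 3.

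The most abundant hydrolase genes per length split by direction. PSAP (ENSG00000197746, chr10:71816298-71851375), whose product is cut into the saposins that help enzymes reach lipids, had the highest FPKM of the members (548) and 1403, 1278 and 1316 CPM in Wnt1_KP6, 1402, 1283 and 1341 CPM in Wnt1 and 1447, 764 and 777 CPM in control. Control replicate 1 was the highest library of all and control replicates 2 and 3 the lowest. Over 9 libraries PSAP had a log2 fold change of 0.42 ± 0.22 for Wnt1_KP6 vs control (edgeR adjusted p = 0.409) and 0.43 ± 0.22 for Wnt1 vs control (0.519), and 0.75 and 0.77 in replicates 2 and 3 alone (adjusted p = 1.3e-07 and 1.91e-07). CTSD (ENSG00000117984, chr11:1752752-1764573), an aspartic protease at 348 FPKM, had 942, 689 and 669 CPM in Wnt1_KP6, 917, 757 and 778 CPM in Wnt1 and 719, 395 and 472 CPM in control. Replicate 1 was the highest library in each group, and Wnt1_KP6 overlapped control while Wnt1 did not. Its log2 fold change was 0.54 ± 0.22 for Wnt1_KP6 vs control (adjusted p = 0.289) and 0.63 ± 0.22 for Wnt1 vs control (0.338). Other annotated genes on the same strand cover 41.7% of the exon bases of CTSD, so its level is uncertain, and a second row with that symbol held 3.85 to 9.40 CPM.

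CTSZ (ENSG00000101160, chr20:58995185-59007247), a carboxypeptidase at 258 FPKM, went the other way in replicates 2 and 3. It had 286, 389.8 and 363 CPM in Wnt1_KP6, 279, 339 and 347 CPM in Wnt1 and 279, 511 and 550.2 CPM in control. Replicate 1 was the lowest library in each group and hardly differed between groups. Over 9 libraries the log2 fold change was -0.37 ± 0.24 for Wnt1_KP6 vs control (edgeR adjusted p = 0.515) and -0.47 ± 0.24 for Wnt1 vs control (0.502), and in replicates 2 and 3 alone CTSZ was called lower (-0.50 and -0.63, adjusted p = 2.69e-05 and 4.52e-06). The protease CTSB was also called lower there (-0.67 and -0.63), with 0.47 and 0.56 in replicate 1, as was the sphingomyelinase SMPD1 (-0.58 and -0.54), with 0.05 and -0.21 in replicate 1.

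NEU1 (ENSG00000204386, chr6:31857659-31862906), the lysosomal sialidase, is given per library although the rule for such genes did not choose it, because its fold change was the largest of the 43. It had 119.6, 126 and 118 CPM in Wnt1_KP6, 119, 106 and 109 CPM in Wnt1 and 93.2, 25.3 and 26.5 CPM in control. All plasmid libraries lay above control, and control replicate 1 stood 3.59-fold above control replicates 2 and 3. NEU1 had a log2 fold change of 1.33 ± 0.45 for Wnt1_KP6 vs control (edgeR adjusted p = 0.208) and 1.20 ± 0.45 for Wnt1 vs control (0.367). In replicate 1 the differences were 0.36 and 0.35, and in replicates 2 and 3 they were 2.23 and 2.05 (adjusted p = 4.3e-11 and 2.96e-10).

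The proton pump genes lay close together in level and in fold change. All 10 were more abundant per length than the median gene tested, within a narrow range of 18.8 to 50.4 FPKM, and their log2 fold changes ran from -0.15 to 0.41 for Wnt1_KP6 vs control and from -0.17 to 0.33 for Wnt1 vs control, with 7 of 10 above 0 in each. ATP6V0D1 (ENSG00000159720, chr16:67438014-67481237), the subunit d of the membrane sector, had 85.5, 86.1 and 82.5 CPM in Wnt1_KP6, 80.7, 81.3 and 78.4 CPM in Wnt1 and 73.6, 54.7 and 63.0 CPM in control. The 3 groups did not overlap, and ATP6V0D1 was the only member whose Wnt1_KP6 libraries all lay above those of Wnt1, where 2.87% of all genes did, and no member's lay below, where 2.94% did. The log2 fold change was 0.41 ± 0.11 for Wnt1_KP6 vs control (edgeR adjusted p = 0.133), 0.33 ± 0.11 for Wnt1 vs control (0.302) and 0.08 ± 0.11 for Wnt1_KP6 vs Wnt1 (1). ATP6AP1 (ENSG00000071553, chrX:154428632-154436516), an accessory subunit needed to assemble the pump, had 105, 96.8 and 89.6 CPM in Wnt1_KP6, 99.2, 86.4 and 91.2 CPM in Wnt1 and 86.4, 72.0 and 76.8 CPM in control. Replicate 1 was the highest library in each group, and only Wnt1_KP6 cleared the highest control library. Its log2 fold change was 0.31 ± 0.10 for Wnt1_KP6 vs control (adjusted p = 0.196) and 0.23 ± 0.10 for Wnt1 vs control (0.439).

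Of the other pump subunits, ATP6V1B2, ATP6V1C1 and ATP6V1E1 of the cytosolic sector were called higher in replicates 2 and 3 alone, at 0.41, 0.51 and 0.36 for Wnt1_KP6 vs control and 0.38, 0.46 and 0.31 for Wnt1 vs control. In replicate 1 the same subunits differed by -0.03, -0.21 and 0.01 for Wnt1_KP6 vs control and by 0.04, -0.18 and 0.13 for Wnt1 vs control. ATP6V1A, the subunit that binds ATP, was at 0.22 in replicates 2 and 3 for Wnt1_KP6 vs control (edgeR adjusted p = 0.0337) and at -0.48 in replicate 1. ATP6V1D, which is part of the central rotor, and ATP6AP2, the prorenin receptor, were not called over 9 libraries, with the block or in replicates 2 and 3 alone, although all libraries of ATP6AP2 in Wnt1_KP6 and of ATP6V1D in Wnt1 lay below control.

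**Figure D3:**
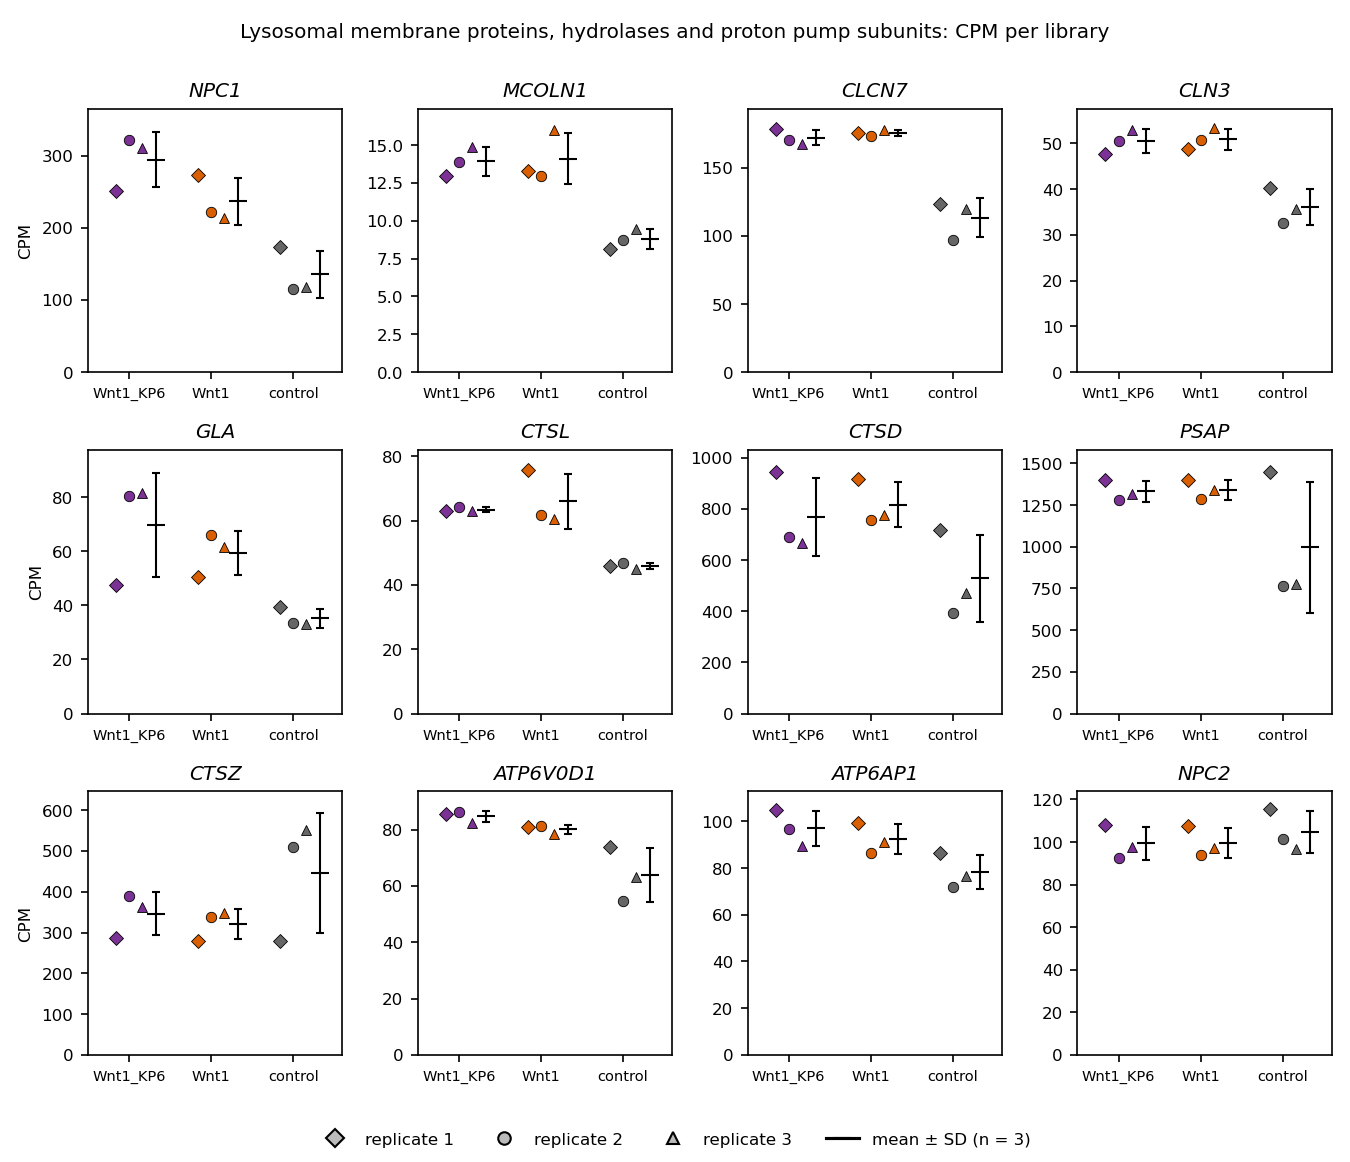
CPM per library (y axis, linear) of 12 membrane, hydrolase and pump genes in Wnt1_KP6, Wnt1 and control, with a marker shape for each replicate number and a bar for mean ± SD (n = 3). NPC1, MCOLN1, CLCN7, CLN3, GLA, CTSL and ATP6V0D1 lie above control in all 6 plasmid libraries, while PSAP and CTSZ of control replicate 1 lie at the level of the plasmid libraries.

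The comparison of Wnt1_KP6 with Wnt1 asks what the Klotho peptide changed in cells that carry the Wnt1 plasmid. Over 9 libraries edgeR called 0 members, where it called 0% of all genes. Of the 43 members 42 had a log2 fold change within 0.25 of 0, and the share of all genes in that range was not counted. The members' median was -0.01 over 9 libraries, -0.01 in replicate 1 and -0.00 in replicates 2 and 3. Over all genes tested these medians were 0.00, 0 and -0.00. The 5 members with the smallest p were FNIP2 (0.23 ± 0.13), NPC1 (0.31 ± 0.18), GLA (0.23 ± 0.20), ATP6V0D1 and ATP6AP1 (0.07 ± 0.10), each with an edgeR adjusted p of 1. In replicates 2 and 3 alone NPC1 (0.53 ± 0.06, adjusted p = 2.68e-05) and GLA (0.34 ± 0.07, adjusted p = 0.00912) were called higher, or 2 of 43 members, beside 6.06% of all genes (8.62% in either direction). In replicate 1 both were below the Wnt1 level, at -0.13 for NPC1 and -0.08 for GLA. TFEB had the largest difference in size in those replicates, -0.58 ± 0.24 (adjusted p = 0.189), against 0.45 in replicate 1.

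Replicate 1 of control carried much of the spread in this gene set. It stood above the mean of control replicates 2 and 3 for 34 of 43 members, with a median of 0.25 on the log2 scale, where over all genes the median was 0.00. For 15 members (34.9%) the gap exceeded 0.5 upward or downward. That share was only somewhat above the share over all genes (3683 of the 13153 tested), so gaps of this size were not particular to the members. The same gap within Wnt1_KP6 and Wnt1 had a median of 0.02 and 0.11. Control replicate 1 lay nearer to the Wnt1 mean than to the other control libraries for 32 members (74.4%) and for 62.2% of all genes. By role this held for all 5 Rag and folliculin genes, 13 of 16 hydrolases, 8 of 10 pump genes, 5 of 9 membrane proteins and 1 of 3 factors. CLCN7, MCOLN1, CLN3, GLA, CTSL and TFE3 were among the members whose control replicate 1 lay nearer to control replicates 2 and 3. Without control replicate 1 edgeR called 20 members for Wnt1_KP6 vs control, 18 of them higher, beside 9.03% of all genes (5.38% higher), and 19 for Wnt1 vs control, 17 of them higher, beside 6.62% (3.9% higher). For Wnt1_KP6 vs Wnt1 it called 0 members and 0% of all genes. Without Wnt1_KP6 replicate 1 it called 6 members for Wnt1_KP6 vs control, beside 5.2% of all genes, 0 for Wnt1 vs control, beside 0.323%, and 0 for Wnt1_KP6 vs Wnt1, beside 1.61%. With no filter on low counts NPC1 was called for Wnt1_KP6 vs control (adjusted p = 0.0415), beside 0.236% of all genes. The level of the mitochondrial transcripts and the first component moved with replicate number in all groups, and their part in this was not tested.

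**Figure D4:**
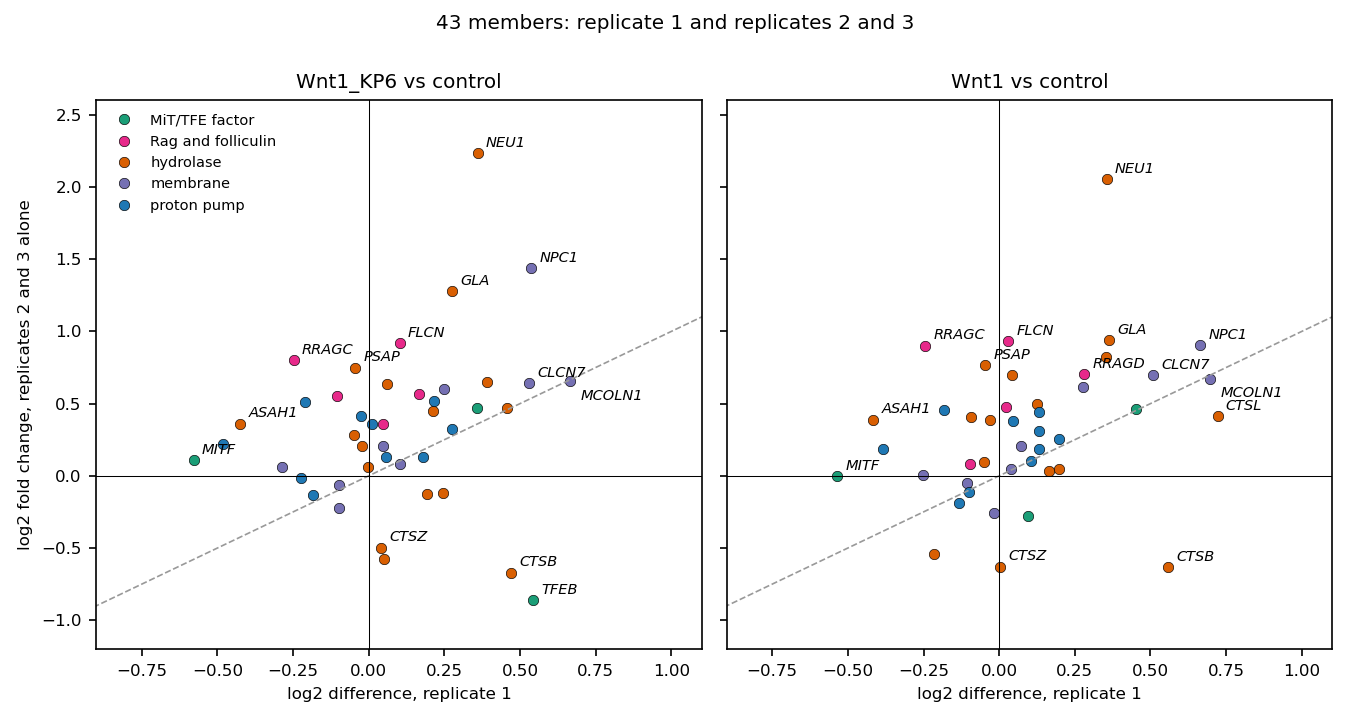
Log2 fold change in replicates 2 and 3 alone (y axis) against the log2 difference in replicate 1 (x axis) for the 43 members, coloured by role, in Wnt1_KP6 vs control and Wnt1 vs control, with a dashed line where both are equal. NEU1 is at 2.23 and 2.05 on the y axis and at 0.36 and 0.35 on the x axis, while MCOLN1 and CLCN7 lie near the line and CTSB lies below 0 on the y axis only.

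The 11 members whose promoter stretches are printed above, with TCACGTG before the RefSeq start, stood higher against control by median than the members whose window lacked it. The 12 members with no window belong to neither set. For Wnt1_KP6 vs Wnt1 the medians over 9 libraries were -0.01 with the motif and 0.01 without it. The median log2 fold change of the 11 was 0.41 for both Wnt1_KP6 vs control and Wnt1 vs control, against 0.09 and 0.06 for the 20 members whose window held no such letters. In replicates 2 and 3 alone the medians against control were 0.60 and 0.61 with the motif, against 0.16 and 0.09 without it. There 9 of the 11 were called higher and 0 lower in both comparisons. Of the 20 others, 10 were called higher and 4 lower for Wnt1_KP6 vs control, and 9 higher and 3 lower for Wnt1 vs control. Over all genes 21.1% were called higher and 19.5% lower for Wnt1_KP6 vs control, and 16.3% and 15.3% for Wnt1 vs control. In replicate 1 the medians were 0.22 and 0.20 with the motif, against 0.05 and 0.04 without. The difference between the sets is a description without a test, since the members were listed with the pathway in view.

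Having the motif did not go with a difference in every case. LAMP1, with 5 marked runs in its stretch, was at 258, 297 and 301 CPM in Wnt1_KP6, 247, 286 and 297 CPM in Wnt1 and 241, 273 and 292 CPM in control. GAA, acid alpha-glucosidase, with 2 palindromes, had log2 fold changes of -0.13 and 0.05 in replicates 2 and 3 alone. NPC1, GLA and FLCN, among the members with the largest differences, had none in their windows. The shorter E-box CACGTG was found in 38.7% of members with a window, against 8.77% of all genes, and adds CD63 to the 11. A further motif, TCACNCCAC on either strand, was found in the window of TFEB alone among members, and in 1.39% of all genes. ATP6V1B2, ATP6V1A, ATP6V1C1, ASAH1, HEXA, NAGLU, ATP6V0E1, RRAGD, CTSB, ATP6V1H, LAMP2 and PSAP had no RefSeq window.

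**Figure D5:**
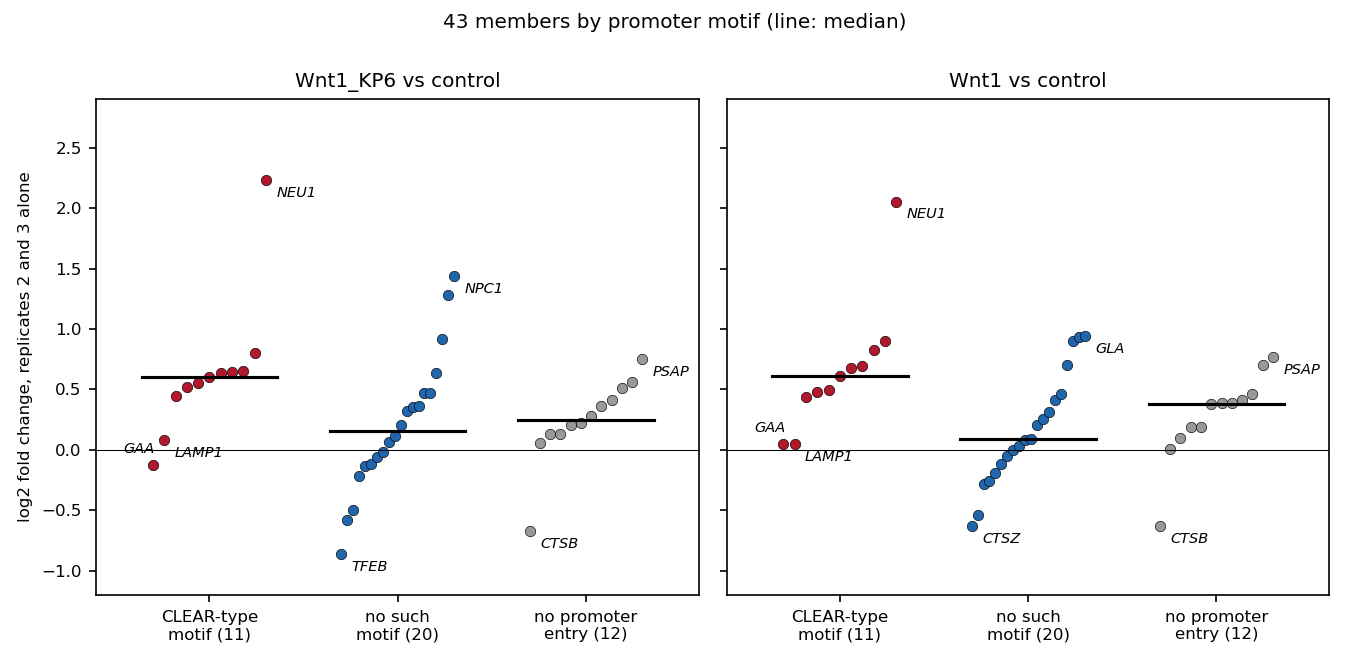
Log2 fold change in replicates 2 and 3 alone (y axis) of the 43 members, split into 11 with the CLEAR core motif in their promoter window, 20 without it and 12 with no window, for Wnt1_KP6 vs control and Wnt1 vs control, with a line at each median. The set with the motif has its median at 0.60 and 0.61 and the set without it at 0.16 and 0.09, and GAA and LAMP1 lie near 0 in the first set.

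Further genes of the same pathways, taken from 6 lists with 150 tested genes outside the 43, are described here by counts and medians. Their median log2 fold change was 0.08 for Wnt1_KP6 vs control, 0.08 for Wnt1 vs control and -0.00 for Wnt1_KP6 vs Wnt1. For 48 other lysosomal hydrolases, membrane proteins and cofactors the medians were -0.03, -0.00 and -0.01. The edgeR test called 0 of them in any comparison. At an unadjusted p under 0.05 there were 9, 10 and 0 of the 48, beside 2076, 1475 and 363 of all 13153 genes. DESeq2 called 1 of them higher and 1 lower for Wnt1_KP6 vs control, beside 5.12% of all genes. In replicates 2 and 3 alone 9 of them were called higher and 8 lower for Wnt1_KP6 vs control, and 9 higher and 5 lower for Wnt1 vs control, beside 21.1% and 19.5% of all genes, and 16.3% and 15.3%. CTNS, the cystine exporter, had the smallest p of that list, at 27.3 CPM on average in Wnt1_KP6, 27.9 in Wnt1 and 18.0 in control (0.60 ± 0.12, edgeR adjusted p = 0.0766, and 0.63 ± 0.12, adjusted p = 0.121).

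TFEB and TFE3 target genes outside the lysosome, mostly of autophagy, had medians of 0.30 for Wnt1_KP6 vs control and 0.27 for Wnt1 vs control over 15 tested genes. Of these, 11 and 10 were called higher in replicates 2 and 3 alone and 0 lower, beside 21.1% and 16.3% of all genes called higher and 19.5% and 15.3% lower. The autophagy receptor SQSTM1 was the only gene of the 6 lists that edgeR called over 9 libraries without a block, for Wnt1_KP6 vs control (1.19 ± 0.18, edgeR adjusted p = 0.0468), where DESeq2 called 10 higher and 1 lower. For Wnt1 vs control edgeR called 0 and DESeq2 called 7, all higher. Over all genes DESeq2 called 5.12% for Wnt1_KP6 vs control (3.57% higher) and 2.3% for Wnt1 vs control (1.54% higher). For Wnt1_KP6 vs control edgeR called 0 genes of the lists with upper-quartile size factors, with only the 2 groups compared, and without any 1 of replicates 2 and 3 of the 3 groups. SQSTM1 had 1893, 2980 and 2751 CPM in Wnt1_KP6, 2018, 2710 and 2670 CPM in Wnt1 and 1108, 1062 and 1174 CPM in control. Here control replicate 1 lay with the other control libraries. MAP1LC3B and GABARAPL1, which build the autophagosome membrane, were higher for Wnt1_KP6 vs Wnt1 in replicates 2 and 3 alone (0.59 and 0.58, adjusted p = 4.5e-05 and 6.85e-05), with -0.06 and 0.01 in replicate 1.

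Pump subunits and isoforms outside the members had medians of 0.19 for Wnt1_KP6 vs control and 0.07 for Wnt1 vs control over 18 tested genes. ATP6V0A1, a large subunit of the membrane sector, averaged 53.4 CPM in Wnt1_KP6, 50.03 in Wnt1 and 39.1 in control (0.45 ± 0.10, edgeR adjusted p = 0.0824, for Wnt1_KP6 vs control). The medians of the 12 tested lysosome damage genes were 0.18 and 0.19, those of 31 nutrient-sensing genes of the mTORC1 pathway 0.11 and 0.10, and those of 26 sorting and delivery genes 0.03 and 0.07. PLEKHM1, an adaptor for fusion with lysosomes, was called with the replicate block in both comparisons with control (0.72 and 0.82, adjusted p = 0.047 and 0.037).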

How the data were processed

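Processing names fastp 0.18.0, Bowtie2 2.2.8, HISAT2, StringTie 1.3.1, RSEM and hg38, per the submitters' processing notes. The sources used here do not give their roles or the annotation. Per the file headers, the authors deposited expected counts beside FPKM values, gene by gene, in every library. The expected counts, of which 87.6% were whole, were rounded. Gene positions come from GENCODE 29, in which 20171 of 20323 IDs were found, and promoters from RefSeq.

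Genes passing edgeR's filterByExpr (minimum count 10, total 15) were TMM-scaled and tested with edgeR 4.0.16 (quasi-likelihood, robust, all 9 libraries in 1 fit) in R 4.3.3, with Benjamini-Hochberg adjustment over all genes tested and a threshold of 0.05. The scripts were tested on simulated data. limma 3.58.1 on deposited FPKM (log2, pseudocount 1) and DESeq2 1.42.0 were alternatives. SEs are of log2 fold changes. Replicate 1 differences are of log2 CPM with a prior count of 2.

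Replicate numbers come from the labels. Same-numbered libraries deviated together in all 9 pairs of libraries (correlations 0.11 to 0.67), so the numbers were taken to pair the libraries. Replicates 2 and 3 also deviated together across numbers (0.15 to 0.40), so the block separates mainly replicate 1 from the others. Values per library are given for the factors, Rag and folliculin genes, for members called over 9 libraries or with the block, and for the 5 with the smallest p in a comparison or the highest FPKM. NEU1 and LAMP1 are given per library outside this rule. Members and lists were chosen with earlier results of these data known. Labels state no kit that keeps strand. One proximal tubule marker and the sum of that list are not reported here.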

Additional observations from a re-analysis of the deposited data

How the results depend on the processing

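Counts of members called depended on the fit. Of the 43, DESeq2 called 9 for Wnt1_KP6 vs control and 7 for Wnt1 vs control, beside 5.12% and 2.3% of all genes. The replicate block called 3 and 2 in that order, beside 1.13% and 0.722%. Replicates 2 and 3 alone gave 30 and 28, where 21.1% and 16.3% of all genes were called higher and 19.5% and 15.3% lower. For Wnt1_KP6 vs Wnt1 they gave 2, beside 8.62% of all genes. With no filter on low counts 1 member (NPC1) was called for Wnt1_KP6 vs control, beside 0.236%. Leaving out 1 library at a time gave 0 to 20 for Wnt1_KP6 vs control, 0 to 19 for Wnt1 vs control and 0 to 0 for Wnt1_KP6 vs Wnt1. The highest counts, 20 and 19, came without control replicate 1, beside 9.03% and 6.62% of all genes. Without Wnt1_KP6 replicate 1, 6 members were called for Wnt1_KP6 vs control, beside 5.2% of all genes. RLE or upper-quartile size factors, the 2 compared groups alone, limma on FPKM and every other library left out gave 0 in each comparison. ATP6V1A reversed, at 0.22 for Wnt1_KP6 vs control in replicates 2 and 3 alone (edgeR adjusted p = 0.0337), against -0.05 over 9 libraries; the cause was not tested. The fit without replicate 1 rests on 2 libraries a group. A count of 3 equalled 0.106 to 0.142 CPM, below every member in every library.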

Other observations

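Deposited FPKM and CPM did not run in parallel for all members. For FNIP2 the ratio of FPKM to CPM differed 1.60-fold between the highest and the lowest library, and for FLCN 1.59-fold. FLCN had 14.6, 12.6 and 22.4 FPKM in Wnt1_KP6, 13.7, 15.8 and 13.99 FPKM in Wnt1 and 13.7, 7.52 and 8.27 FPKM in control. Wnt1_KP6 replicate 3 was its highest library in FPKM, and Wnt1 replicate 2 in CPM. For NPC1 the ratio differed 1.09-fold.

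NCOA7, a gene whose product binds the V-ATPase, differed between Wnt1_KP6 and Wnt1 in replicates 2 and 3 and not in replicate 1. It had 33.7, 75.1 and 86.3 CPM in Wnt1_KP6, 32.6, 36.9 and 36.8 CPM in Wnt1 and 44.6, 29.6 and 25.8 CPM in control. The log2 fold change for Wnt1_KP6 vs Wnt1 was 0.88 ± 0.33 over 9 libraries (edgeR adjusted p = 1) and 1.13 in replicates 2 and 3 alone (adjusted p = 1.04e-06), against 0.05 in replicate 1.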
